A study of Rattus norvegicus with 6 samples.

Results

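The genes described here are the inhibitors of the cyclin-dependent kinases and 2 genes of the p53 response, Mdm2 and Gadd45a, in rat aortic vascular smooth muscle cells (RASMCs). They were chosen by gene symbol, from a list of 9 names that was drawn up with the fold changes and adjusted p-values of the same comparison known, so their values are given as a description and support nothing beyond it. Of the 9 genes, 8 had a line in the count table of 22574 symbols and 7 were among the 12591 genes with enough counts to be tested. Cdkn2d was not listed under that symbol and is not analysed here, and Cdkn1c was close to 0.

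RNA was measured in 6 libraries of primary RASMCs from male, 8-week-old Sprague-Dawley rats, for which the labels name no genetic change. In 3 libraries the cells had received citrullinated histone H3 at 0.03 μM and dsDNA at 300 ng/ml, both of them components of extracellular traps, and this group is called CitH3+dsDNA, as in the labels. The 3 control libraries came from cells given BSA, and the comparison asks which transcripts respond to trap components. In the study's in vitro experiments the replicates were wells plated from cells of the same rat, so p-values cover the spread between wells and library preparations rather than between animals, and the length of the treatment was not given in the sources used here.

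Cells stop dividing when inhibitors bind the kinases that drive the cycle. The INK4 proteins, encoded by Cdkn2a, Cdkn2b, Cdkn2c and Cdkn2d, bind the kinases CDK4 and CDK6 and keep D-type cyclins from activating them, whereas the CIP/KIP proteins, encoded by Cdkn1a, Cdkn1b and Cdkn1c, bind cyclin-kinase complexes more broadly. The tumor suppressor p53 raises transcription of Cdkn1a, of Gadd45a and of Mdm2, whose product in turn marks p53 for degradation. Cdkn2a is a special case, since 1 locus makes both the kinase inhibitor p16 and, from another reading frame, ARF, which restrains the MDM2 protein. High p16 and p21 are widely used marks of senescence, and senescent smooth muscle cells are known from atherosclerotic plaques.

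Library totals lay between 17573905 and 18742395 counts. Control replicate 3 stood apart in 16 of 8665 genes with a mean of at least 10 CPM, where its level was below 0.5 times that of the lowest other library, while the other 5 libraries had 0 to 2 such genes each, and the cause was not tested. The cells carried the contractile genes of smooth muscle, with a summed level of the 8 markers of 8484 to 9225 CPM in controls and 5746 to 6303 CPM in the CitH3+dsDNA group. Acta2 and Tagln made up most of this sum, with means of 5025 and 2690 CPM in controls and 3115 and 2032 CPM after CitH3+dsDNA. CPM here are counts scaled to library totals adjusted by TMM (trimmed mean of M-values). The 8 macrophage markers summed to 73.4 to 76.5 CPM in controls and 72.2 to 74.5 CPM in the CitH3+dsDNA group. Cd14 made up the largest part, with 921 to 994 counts per library, and Csf1r had 296 to 374. Ptprc, the gene of CD45, had at most 1 count in any library. The 6 endothelial markers summed to 9.81 to 10.5 CPM in controls and 8.44 to 8.91 CPM after CitH3+dsDNA. Cdh5 had 73 to 105 counts per library and Tie1 38 to 61, while Kdr had at most 1 count in any library. The 5 fibroblast markers summed to 2.59 to 4.93 CPM in controls and 2.64 to 4.14 CPM after CitH3+dsDNA. None of the 27 markers was at 0 in all libraries, but 3 macrophage, 1 endothelial and 1 fibroblast marker stayed under 10 counts in every library. The part of these cell types in the results was not tested. In bulk RNA, fewer cells that express a gene and less of its RNA per cell cannot be told apart.

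A gene is called where its adjusted p-value is under 0.05. Of the 7 tested genes Cdkn2a alone was called, and it was higher in the CitH3+dsDNA group. Over all 12591 genes tested, 2.2% passed that threshold, 1.94% higher and 0.262% lower, and nothing is read from 1 of 7 beside these shares because the genes were chosen with this comparison in view. The median log2 fold change of the 7 genes was -0.003, and that of all genes tested was -0.001.

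Cdkn2a had 114, 147 and 133 counts in the CitH3+dsDNA libraries and 33, 34 and 32 counts in the controls. Every CitH3+dsDNA library lay above every control, a separation that 19.1% of all genes tested showed in 1 direction or the other. On the CPM scale the level was 7.32 ± 1.03 CPM (SD, n = 3) in the treated cells against 1.80 ± 0.0678 CPM (SD, n = 3) without treatment, which is 4.06 times the control level. On the log2 scale the ratio of CitH3+dsDNA to control was 2.02, with a standard error (SE) of 0.17 and a 95% interval of 1.64 to 2.40, and edgeR's quasi-likelihood test gave an adjusted p of 7.87e-06. Reads were summed over the whole gene, so that p16 and ARF transcripts cannot be told apart in these counts.
The control counts of Cdkn2a were 3 consecutive whole numbers. Their SD was 1 count, where the square root of their mean, the SD of counting error alone, was 5.74 counts. Among the 28 called genes with a control mean between 20 and 50 counts, 10 (35.7%) had such a run in controls, against 18 of 1019 genes (1.77%) that were not called. A small spread within groups itself makes a call more likely, and its part in these shares was not tested. In the CitH3+dsDNA group the SD of Cdkn2a was 16.6 counts beside a square root of 11.5 counts.

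Cdkn2b, which encodes p15 and lies next to Cdkn2a on the chromosome, had 1031, 1028 and 1034 counts after CitH3+dsDNA and 1095, 1034 and 1030 counts in controls. The groups overlapped. The log2 ratio was -0.003, its 95% interval ran from -0.11 to 0.10, and edgeR gave an adjusted p of 0.988. The 3 CitH3+dsDNA counts had an SD of 3 counts, where counting error alone gives 32.1.
Cdkn2c, the gene of p18, had 161, 160 and 159 counts after CitH3+dsDNA and 148, 169 and 142 counts in controls. The groups overlapped here as well, with a log2 ratio of 0.09 and a wider 95% interval of -0.14 to 0.33 (edgeR adjusted p = 0.760). The CitH3+dsDNA counts of Cdkn2c were again a run of 3 consecutive whole numbers, which 5 of 1270 genes not called (0.394%) and 0 of 19 called genes with a mean between 100 and 200 counts had in that group.

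**Figure D1:**
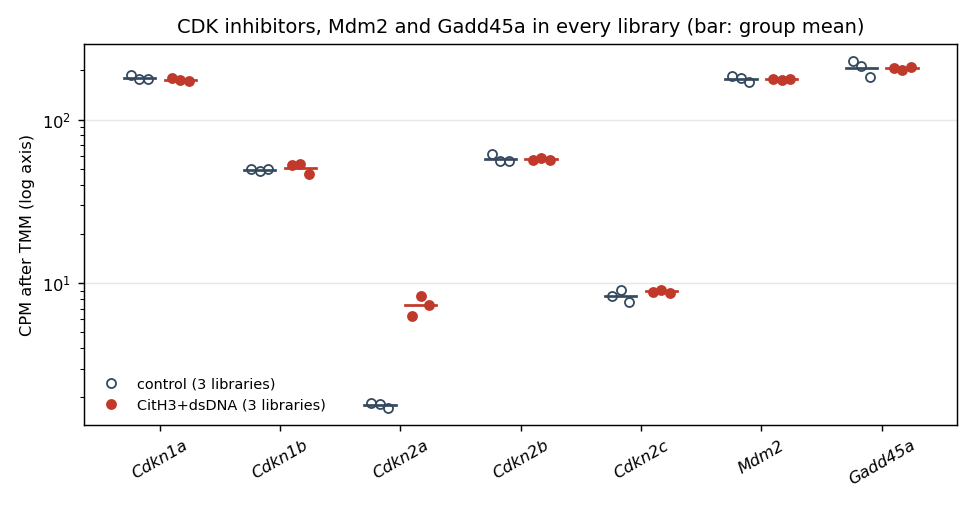
Levels of the 7 tested genes in CPM, with library sizes adjusted by TMM, on a log axis, with 1 point per library and a bar at each group mean. Only Cdkn2a shows separate groups, with 6.29 to 8.34 CPM after CitH3+dsDNA against 1.72 to 1.85 CPM in controls. Levels of different genes are not scaled for length and cannot be ranked against each other.

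The sequences before the starts of Cdkn2a and Cdkn2b are shown because these INK4 genes are neighbours, of which Cdkn2a was called and Cdkn2b was not, a difference between the 2 genes that was not itself tested. The RefSeq windows of GRCr8 hold 250 bases up to the base before the start, on the minus strand, at chr5:109107957-109108206 for Cdkn2a and chr5:109134856-109135105 for Cdkn2b, and capitals mark the GC box GGGCGG on either strand.
Cdkn2a: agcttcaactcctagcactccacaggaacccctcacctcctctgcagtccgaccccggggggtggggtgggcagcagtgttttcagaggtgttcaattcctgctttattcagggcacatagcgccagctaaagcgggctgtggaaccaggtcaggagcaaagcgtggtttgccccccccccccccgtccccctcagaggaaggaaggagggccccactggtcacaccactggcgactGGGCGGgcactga
Cdkn2b: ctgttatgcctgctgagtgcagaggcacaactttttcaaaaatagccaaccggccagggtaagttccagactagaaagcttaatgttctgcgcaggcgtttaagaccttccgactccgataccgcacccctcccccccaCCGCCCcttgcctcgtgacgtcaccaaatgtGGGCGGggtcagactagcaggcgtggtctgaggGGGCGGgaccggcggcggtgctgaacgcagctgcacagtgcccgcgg
The Cdkn2a window held 1 GC box and the Cdkn2b window 3, and 30.5% of the 33465 rat promoter windows held at least 1. Of the 8 genes of the list with a RefSeq window, 7 held a GC box. The Cdkn2a start in this table lies 6492 bases inside the annotated gene, so that the window stands before 1 of its starts and not before the outermost one. The motif TTCNNNGAA, a binding motif of STAT factors, was found in 1 of the 8 windows, that of Cdkn2d, and in 7.67% of all windows.

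Cdkn1a, which encodes p21, is the best known target of p53 among the inhibitors. It had 3248, 3097 and 3130 counts after CitH3+dsDNA and 3326, 3289 and 3298 counts in controls. The raw counts of the treated cells were all below those of the controls, but the groups overlapped once library size was accounted for, at 176 ± 3.35 CPM (SD, n = 3) with CitH3+dsDNA against 180 ± 5.14 CPM (SD, n = 3) without it. The log2 ratio was -0.04, the 95% interval ran from -0.12 to 0.04, and edgeR gave an adjusted p of 0.699.
The window before the start of Cdkn1a is shown for its match to the decamer of the p53 response element. It lies at chr20:7150682-7150931 on the plus strand of GRCr8 in RefSeq, and capitals mark the match.
Cdkn1a: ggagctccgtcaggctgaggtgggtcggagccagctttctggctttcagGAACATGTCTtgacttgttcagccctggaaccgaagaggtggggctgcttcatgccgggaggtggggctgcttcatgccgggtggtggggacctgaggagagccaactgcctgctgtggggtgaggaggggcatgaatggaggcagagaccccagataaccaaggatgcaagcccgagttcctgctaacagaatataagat
Such a decamer, searched by its consensus on both strands, was in 4 of the 8 windows, those of Cdkn1a, Cdkn2c, Cdkn2d and Gadd45a, and in 6.64% of all windows. A match in these letters is a description and does not show that p53 was bound. The lack of a match does not show that a gene has no p53 site, since only 250 bases before 1 start were searched. The starts used for Cdkn1a, Cdkn1b, Cdkn2c and Mdm2 also lay inside the annotated genes, by 112, 231, 673 and 966 bases.

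Cdkn1b, the gene of p27, which holds quiescent smooth muscle cells in check, had 954, 943 and 840 counts after CitH3+dsDNA and 890, 898 and 931 counts in controls. The groups overlapped, the log2 ratio was 0.04 and its 95% interval -0.09 to 0.16 (edgeR adjusted p = 0.827). Cdkn1c, the gene of p57 and imprinted in rodents, had 3, 0 and 1 counts after CitH3+dsDNA and 2, 2 and 0 counts in controls. It was not tested, and at this depth a difference in Cdkn1c was not detectable.

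Mdm2 encodes the ubiquitin ligase that p53 induces and that degrades p53. Its counts were 3211, 3086 and 3233 after CitH3+dsDNA and 3279, 3346 and 3135 in controls. The groups overlapped, and the log2 ratio was -0.007 with a 95% interval of -0.09 to 0.08 (edgeR adjusted p = 0.961).
Gadd45a, a stress gene whose product binds PCNA and the kinase CDK1, had 3772, 3558 and 3816 counts after CitH3+dsDNA and 4057, 3954 and 3360 counts in controls. The CitH3+dsDNA counts lay within the range of the controls, whose SD of 376 counts was the largest of the 7 genes. The log2 ratio was -0.003, with a 95% interval of -0.14 to 0.14 (edgeR adjusted p = 0.993).

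**Figure D2:**
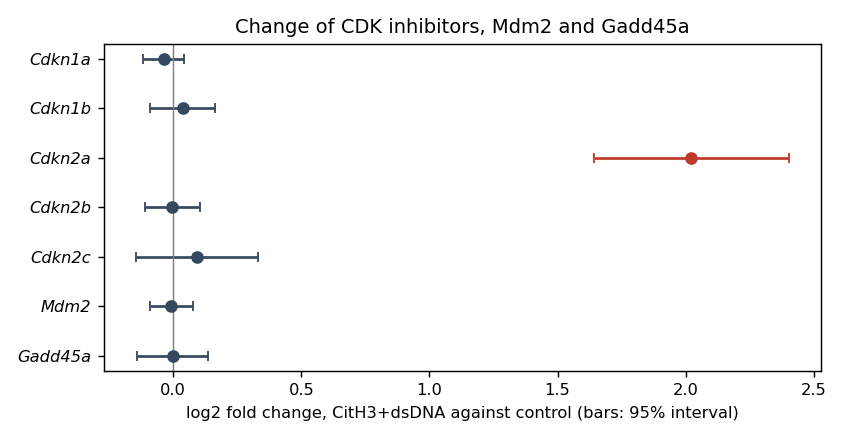
Log2 fold changes of CitH3+dsDNA against control for the 7 tested genes, with bars for 95% intervals from the edgeR fit. Cdkn2a stands at 2.02, and the intervals of the other 6 genes include 0 and reach at most 0.33, for Cdkn2c.

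The pattern of Cdkn2a over the 6 libraries was most like that of Fance (Pearson's r = 0.998 over log2 CPM), a gene of the Fanconi anemia core complex, of Nr4a3 (0.998), an immediate-early nuclear receptor, and of Aifm1 (0.997), which encodes the apoptosis-inducing factor. All 3 were called as higher, and 187 genes had a correlation with Cdkn2a above 0.95. Fance had 110, 112 and 111 counts in controls and Nr4a3 had 23, 22 and 21, both of them runs of 3 consecutive whole numbers as in Cdkn2a. Cdkn1a was most like Sumo3 (r = 0.992), Hoxc10 (0.990) and Haus5 (0.986), none of which was called. These are descriptions over 6 libraries that share their scaling. The pattern of Cdkn2a is mainly a step between the groups, so other genes with a large rise correlate with it. That its closest patterns were called as higher follows from this and adds no support.

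Of the p53 regulators, 4 of 13 tested genes rose after CitH3+dsDNA and none fell, where 1.94% of all genes tested were called as higher and 0.262% as lower, the background for each list described from here on. Atm, the kinase that signals DNA double-strand breaks to p53, had 354, 294 and 335 counts against 45, 44 and 47, which gave a log2 ratio of 2.88 (SE 0.12, edgeR adjusted p = 2.77e-09). Chek2, the kinase that Atm activates, had 224, 242 and 203 counts against 56, 55 and 54, and its log2 ratio was 2.05 (SE 0.13, edgeR adjusted p = 2.70e-07). The groups did not overlap in either gene, as in 19.1% of all genes tested. The control counts of Chek2 were consecutive whole numbers, the same in order as those of E2f3 and Bcl2l11. For that reason nothing is read from the small spread of these controls.
Kat5, an acetyltransferase that modifies p53 and ATM, had 916, 942 and 943 counts against 223, 221 and 220 and rose to 4.30 times the control level (edgeR adjusted p = 1.81e-10). Its control counts lay closer together than counting error alone gives, and nothing is read from that small spread. Sirt1, a deacetylase that acts on p53, had 56, 53 and 55 counts against 10, 23 and 24 and rose by 1.56 in log2 (edgeR adjusted p = 0.00926), and without CitH3+dsDNA replicate 1 its adjusted p was 0.0578. The 9 other tested regulators did not pass, among them Atr, Chek1, Usp7 and Ppm1d. Mdm4, which encodes the MDM2-related inhibitor of p53, had 562, 550 and 543 counts against 441, 481 and 495, with no overlap of the groups, and its log2 ratio was 0.25 (edgeR adjusted p = 0.0581). The median over the 13 regulators was 0.15, against -0.001 for all genes tested. An unadjusted edgeR p-value under 0.05 was found for 46.2% of the regulators and 13.9% of all genes. The groups did not overlap in 38.5% of the regulators and 19.1% of all genes. This list, like the lists below, was chosen with earlier results of these data known, so nothing is read from these shares.

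**Figure D3:**
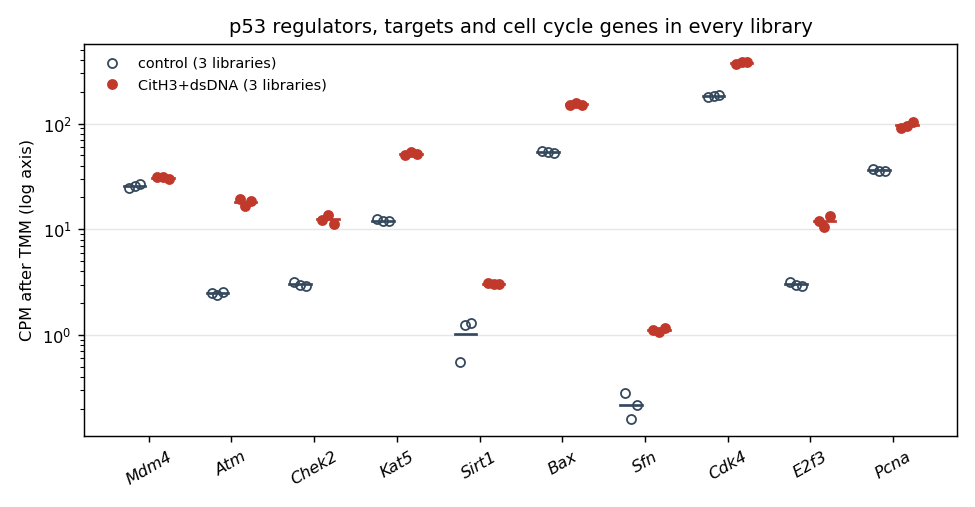
Levels in CPM after TMM scaling, on a log axis, of p53 regulators (Mdm4, Atm, Chek2, Kat5, Sirt1), p53 targets (Bax, Sfn) and cell cycle genes (Cdk4, E2f3, Pcna), with 1 point per library and a bar at each group mean. None of the 10 genes shows overlapping groups, where 19.1% of all genes tested showed none, and all but Mdm4 are called. The genes were drawn with their calls known, so nothing is read from this count.

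Among 33 tested direct targets of p53 other than Cdkn1a, Mdm2 and Gadd45a, 2 rose and none fell, and their median log2 ratio was 0.004. Bax, whose product permeabilizes mitochondria in apoptosis, had 2749, 2765 and 2732 counts against 980, 990 and 978, and its log2 ratio was 1.51 (SE 0.04, edgeR adjusted p = 9.86e-11). The counts of Bax lay closer together within each group than counting error alone gives, and nothing is read from that small spread. Sfn, the gene of stratifin, had 20, 19 and 21 counts against 5, 3 and 4, and its log2 ratio of 2.35 (SE 0.38, edgeR adjusted p = 0.00342) rests on few reads. In both groups the counts of Sfn were runs of 3 consecutive whole numbers, as in the controls of Cdkn2a. The targets Bbc3, Pmaip1, Fas, Ccng1, Sesn2, Zmat3, Phlda3 and Aen did not pass, and the log2 ratios of the 31 targets that were not called lay between -0.30 and 0.17. The groups did not overlap in 6 of the 33 targets (18.2%), 4 of them not called, which is near the share of 19.1% over all genes.

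The kinases that INK4 proteins bind are CDK4 and CDK6. Cdk4 had 6600, 6720 and 6977 counts after CitH3+dsDNA and 3200, 3363 and 3454 in controls, and rose by 1.05 in log2 (SE 0.04, edgeR adjusted p = 6.05e-10). Cdk4 was the only one of 11 tested CDKs and cyclins to pass. Cdk6 had 355, 315 and 356 counts against 277, 299 and 348 (log2 ratio 0.18, edgeR adjusted p = 0.380), and its groups overlapped. The D-type cyclin gene Ccnd1 had a log2 ratio of 0.007 (edgeR adjusted p = 0.952), with 7806, 7447 and 7516 counts against 7480, 7746 and 7879, and Cdk2, the kinase of the next step in the cycle, had a log2 ratio of -0.02 (edgeR adjusted p = 0.953).

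Further along the pathway, RB proteins hold back E2F factors until CDKs phosphorylate them. Of the 13 tested genes of these families 1 rose, E2f3, with 219, 187 and 245 counts against 56, 55 and 54 and a log2 ratio of 2.01 (SE 0.14, edgeR adjusted p = 5.22e-07). Rb1 had 381, 382 and 390 counts against 323, 323 and 331, at a log2 ratio of 0.27 (edgeR adjusted p = 0.0625), with groups that did not overlap. Of 20 proliferation genes 1 rose, Pcna, the clamp of the replication fork, with 1658, 1681 and 1880 counts against 667, 666 and 656 and a log2 ratio of 1.42 (edgeR adjusted p = 1.71e-09). Mki67, a mark of cycling cells, had 1230, 992 and 1053 counts against 838, 957 and 996 (log2 ratio 0.26, edgeR adjusted p = 0.0975), and 5 alternatives to this test called up to 3 more genes of the list, Mki67 and Top2a as higher and Mcm2 and Rrm2 as lower. Median log2 ratios were -0.02 for the CDKs and cyclins, 0.005 for the RB and E2F genes and -0.06 for the proliferation genes. Unadjusted edgeR p-values under 0.05 were found for 9.09%, 15.4% and 35% of these lists, against 13.9% of all genes. Those of the proliferation genes went in both directions. The groups did not overlap in 18.2%, 23.1% and 35%, against 19.1% of all genes.

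**Figure D4:**
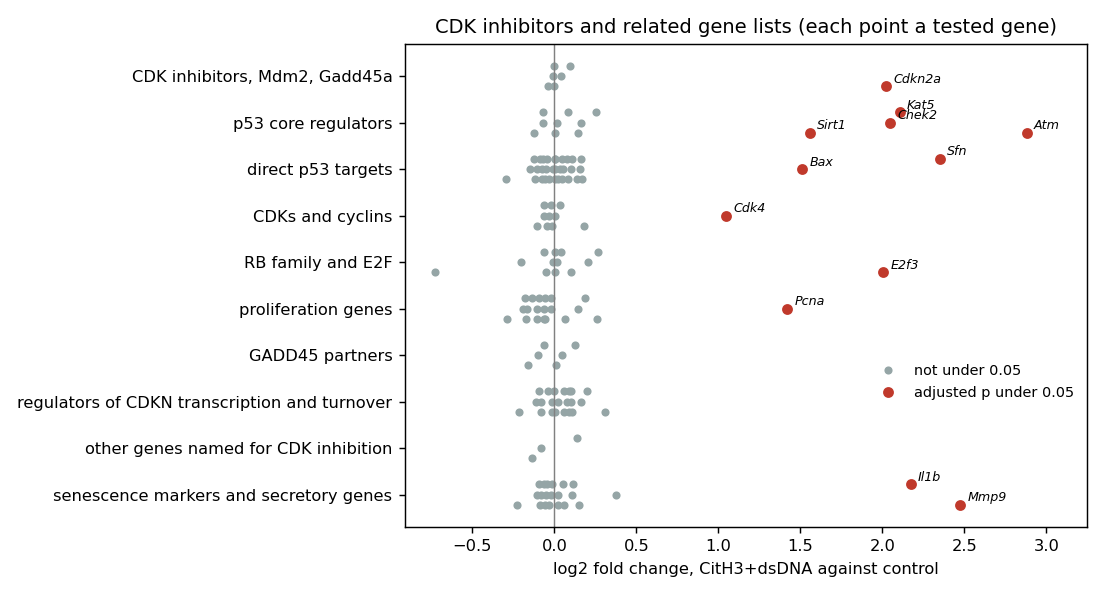
Log2 fold changes of CitH3+dsDNA against control, with 1 point per tested gene in each of 10 gene lists, without the cell type marker lists. The named points have an adjusted p-value under 0.05 in the edgeR test and lie between 1.05 (Cdk4) and 2.88 (Atm), apart from the bulk of each list around 0.

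Among genes known to set CDKN transcription or protein turnover, none of 22 tested passed in edgeR, where 4 (18.2%) had an unadjusted p-value under 0.05, against 13.9% of all genes tested. The list included the polycomb genes Bmi1 and Ezh2, which silence the Cdkn2a locus, and Skp2, whose product targets p27 for degradation. The groups did not overlap in 7 of the 22 (31.8%, against 19.1% of all genes), and the log2 fold changes ran from -0.22 to 0.31. The related genes Gadd45b and Gadd45g and their partners gave 0 called of 6 tested, with a range of -0.16 to 0.13. Of these 6 genes, 1 (16.7%) had an unadjusted edgeR p-value under 0.05, and 1 (16.7%) had groups that did not overlap. Of the 5 other genes named for CDK inhibition, 3 were tested and none passed, with 1 (33.3%) at an unadjusted edgeR p-value under 0.05. The groups did not overlap in 2 of these 3 (66.7%, against 19.1% of all genes). Cdkn3 had 3 counts in 1 library and 0 in the others.

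Senescent cells secrete cytokines and proteases and lose lamin B1. Of 22 tested senescence and secretory genes, 2 rose and none fell, and the median log2 ratio was -0.02. Mmp9, a matrix protease, had 175, 180 and 179 counts against 30, 38 and 30 (log2 ratio 2.47, edgeR adjusted p = 1.88e-07). Il1b, an inflammatory cytokine, had 116, 109 and 120 counts against 22, 23 and 33 (log2 ratio 2.17, edgeR adjusted p = 9.74e-06). The other 20 did not pass, among them Il6, Ccl2, Cxcl1 and Glb1, the gene of the lysosomal beta-galactosidase that is stained in senescent cells. Lmnb1, the lamin B1 gene, had 632, 667 and 693 counts against 704, 751 and 728 and a log2 ratio of -0.10 (edgeR adjusted p = 0.451). Its groups did not overlap, as in 19.1% of all genes tested. Tnf had 0 counts in 5 libraries and 69 in control replicate 3, and was not tested.

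**Figure D5:**
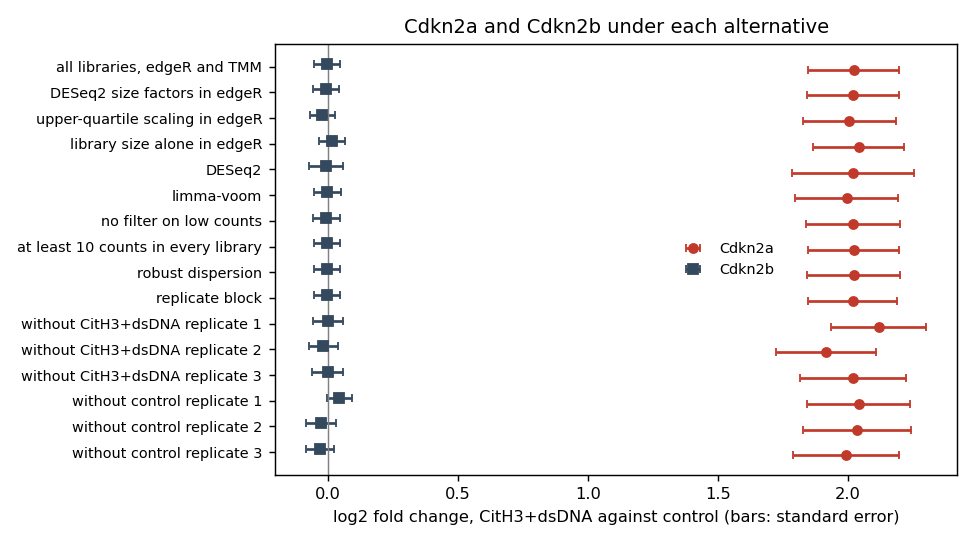
Log2 fold changes of Cdkn2a (circles) and Cdkn2b (squares) with all libraries and under each of 15 alternatives, with bars for standard errors. Cdkn2a stayed between 1.92 and 2.12, while Cdkn2b ran from -0.03, without control replicate 3, to 0.045, without control replicate 1, and was called under none.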

How the data were processed

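mRNA of 3 CitH3+dsDNA and 3 control libraries of RASMCs was sequenced from stranded libraries. The authors used TopHat2 to map them to Rnor6.0 (version 2.1.1 in the submitters' processing notes, which also list Cufflinks 2.2.1 and Cuffdiff) and deposited raw HTSeq counts per gene. The strand setting of the counting is not given in the sources used here, so overlapping and antisense genes can share reads. Libraries were grouped by their titles.

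Low genes were removed by edgeR's filterByExpr. After TMM scaling, 12591 genes entered the two-sided quasi-likelihood test of edgeR 4.0.16 (R 4.3.3). P-values were adjusted by Benjamini-Hochberg over all of them with 0.05 as the threshold for a call. The SE is the unshrunken log2 ratio divided by the square root of F. An exact permutation test of 3 against 3 cannot give a p-value under 0.1.

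The 9 genes and all lists were chosen with earlier results of these data known. Named were all 9, Mdm4, Rb1, Ccnd1, Cdk4, Cdk2 and Mki67, up to 5 called genes per list with the largest change, and the 3 closest patterns of Cdkn1a and of each called gene of the 9. A further gene of that rule is not reported here, and 2 genes were left out of the lists. Other genes are named as examples and were chosen after their values were seen. Levels were not compared between genes, since gene lengths of that build were not used here. Alternatives were 3 other scalings, DESeq2 1.42.0, limma-voom (limma 3.58.1), no filter, a minimum of 10 counts in every library, robust dispersions, a replicate block, and leaving out 1 library at a time. The fits were tested on simulated data. Promoter windows were matched by symbol to RefSeq on GRCr8, which had an entry for 8 of the 9 genes.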

Additional observations from a re-analysis of the deposited data

How the results depend on the processing

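Cdkn2a was the single called gene of the 9 under all 15 alternatives, with log2 fold changes from 1.92 to 2.12 and adjusted p-values from 1.26e-15 (DESeq2) to 0.000145 (edgeR without CitH3+dsDNA replicate 2). The other 6 tested genes were called under none, with log2 fold changes between -0.09 and 0.16. Of 419 values of single named genes under alternatives, 405 stayed where they were relative to the threshold. A call was lost in 9, which were 8 values of Smtn and 1 of Sirt1, and gained in 5, for Mdm4, Rb1 and Mki67. No called value changed sign.

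The number of all genes called, 277, ran from 164 (without CitH3+dsDNA replicate 1) to 357 (without control replicate 3) with a library left out, and was 184 without control replicate 1. Direct p53 targets went from 2 to 1 with at least 10 counts in every library, which leaves out Sfn. RB and E2F genes went from 1 to 2 with library size alone, adding Rb1. Proliferation genes went from 1 to 4 with DESeq2, to 3 with no filter and to 3 with robust dispersion, and ran from 1 to 2 with a library left out, adding Top2a without CitH3+dsDNA replicate 2 and Mcm2 without control replicate 1. The cause was not tested, except that fewer samples enter a fit with a library left out.

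A fit with the replicate number as a block (replicate block) called 212 genes, which include 200 of the 277, and gave Cdkn2a a log2 fold change of 2.02. Deviations from the group means correlated at -0.0458, 0.00452 and 0.0355 for equal replicate numbers, and between -0.0462 and 0.042 for unequal numbers. Values this near 0 show no strong deviation shared by equal numbers. They cannot decide whether libraries were paired, since a paired layout need not leave such a deviation.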

Other observations

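Among the smooth muscle markers, 5 of 8 passed the edgeR test. Cnn1, the gene of calponin, had 2546, 2558 and 2448 counts after CitH3+dsDNA and 8766, 6566 and 7555 in controls and fell by 1.57 in log2 (edgeR adjusted p = 9.54e-08). Acta2 had a log2 fold change of -0.69, Tagln of -0.40 and Smtn, a smoothelin gene, of -0.21 (edgeR adjusted p = 0.0386), and the call of Smtn was lost in 8 of 15 alternatives. Myocd, which encodes the coactivator of contractile genes, went the other way, with 725, 596 and 757 counts against 320, 330 and 343 and a rise of 1.09 in log2 (edgeR adjusted p = 1.60e-06). Myh11, Des and Lmod1 did not pass, with log2 fold changes of 0.06, -0.06 and -0.06.

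Counts repeat across called genes. The control counts of Chek2, E2f3 and Bcl2l11 were 56, 55 and 54 in the same order of libraries, and those of Htra3 and Il18 were 54, 55 and 56. Of 21 called genes with a control mean between 50 and 100 counts, 5 shared their 3 control counts, in order, with another called gene, where 6 of 950 genes not called shared theirs with another gene not called. Over genes with a group mean of at least 20 counts, the variance of the 3 control counts was below 0.05 of their mean in 32 of 259 called genes (12.4%) and in 255 of 11522 genes not called (2.21%), and in the CitH3+dsDNA group in 24 of 270 (8.89%) and 289 of 11532 (2.51%). Cdkn2a is among the called genes with such a low variance in controls, and Cdkn2b and Cdkn2c are among the genes not called with such a low variance after CitH3+dsDNA. The cause was not tested, and these counts were looked at after the results had been seen. Since a small spread within groups makes a call more likely, called and not called genes are not chosen independently of their variance.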
